A study of Mus musculus with 6 samples.

Results

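The genes described here are 34 genes of protein folding in the endoplasmic reticulum (ER) and of the unfolded protein response, taken as a list of names. Each gene was read from its probe set of highest mean over the 6 arrays, among probe sets annotated with 1 gene symbol. This gave values for 33 of the 34 genes, out of 19938 genes measured in all. Sec61g, a subunit of the translocation channel, was left out because its 4 probe sets also name other genes. No filter on low values was applied, so all 33 genes entered the test.

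The samples were mouse pre-B acute lymphoblastic leukaemia cells, that is, B cell precursors transformed by the fusion kinase BCR-ABL1. All were from strain C57Bl/6 and carried Bcor fl/Y, a floxed allele of the X-linked corepressor gene Bcor with no second copy. The 3 Cre-ERT2 samples carried the vector PMIP-CRE-ERT2, which encodes a Cre recombinase that needs tamoxifen to act, and the 3 ERT2 samples carried PMIP-ERT2, without Cre. Both groups received 0.5 micromolar 4OH-Tamoxifen for 2 days and were selected with puromycin, so the control shares the vector backbone, the drug and the selection. The question, following the series title, is what loss of Bcor does in these cells. The control lacks Cre, so loss of Bcor and the activity of Cre itself cannot be told apart here. The labels do not say whether replicates were separate cultures, clones or animals, so the p-values rest on the spread among these arrays alone, which may be technical.

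Secreted and membrane proteins enter the ER through the SEC61 channel, fold with the help of chaperones and disulfide isomerases, and leave in COPII-coated vesicles. Proteins that fail to fold are drawn back into the cytosol and destroyed, a route called ER-associated degradation (ERAD). When unfolded proteins build up, the sensors IRE1 (gene Ern1), ATF6 and PERK (gene Eif2ak3) switch on the unfolded protein response. IRE1 splices the Xbp1 mRNA into a form that encodes an active transcription factor, ATF6 is cut to release another, and PERK slows translation while raising the factor ATF4. In the B lineage, XBP1 is best known for enlarging the secretory machinery of antibody-secreting plasma cells.

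Several of the listed genes carry ER stress elements in front of their start. The genes were listed by name for their roles in ER folding and the unfolded protein response. That choice may favour genes known to carry these elements, so the share with a match is not taken as independent of the choice. RefSeq promoters (GRCm38.p6, 250 bases before to 50 bases after the start) were matched by symbol for 28 of the 34 genes. Both strands were searched for the ER stress element ERSE (CCAAT and CCACG with 9 bases of any kind between them), for ERSE-II (ATTGG and CCACG with 1 base of any kind between them) and for the element UPRE (TGACGTGG). All of these hold CCACG on one strand, but no match was shared between them. The search also covered the core of the amino acid response element CARE (TGATGNAA), which was added after the values and these sequences had been seen. An exact ERSE stood in 9 of the 28 promoters (32.1%) and in 39 of all 32851 promoters in the table (0.119%). ERSE-II stood in 2 of the 28 (Dnajb11 and Herpud1) and in 0.0365% of all promoters. UPRE stood in 1 (Sec24d) and in 0.676% of all. CARE stood in 1 (Herpud1) and in 3.97% of all.

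The first of the windows below are chaperone genes with an ERSE, whose mRNA did not pass the test. Then come Derl3 and Herpud1, the listed genes that fell, and Xbp1, the one that rose. Each runs 5′ to 3′ on the strand of the gene and ends before the start, and capitals mark the matches. The windows lie at chr2:34771985-34772083 (plus strand) for Hspa5, chr10:86705493-86705694 (minus) for Hsp90b1, chr8:84847035-84847133 (minus) for Calr, chr10:75893202-75893300 (plus) for Derl3, chr8:94386277-94386427 (plus) for Herpud1 and chr11:5520541-5520640 (plus) for Xbp1.
Hspa5: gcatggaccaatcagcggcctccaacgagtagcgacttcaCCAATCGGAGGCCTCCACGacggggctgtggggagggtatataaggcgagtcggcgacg
Hsp90b1: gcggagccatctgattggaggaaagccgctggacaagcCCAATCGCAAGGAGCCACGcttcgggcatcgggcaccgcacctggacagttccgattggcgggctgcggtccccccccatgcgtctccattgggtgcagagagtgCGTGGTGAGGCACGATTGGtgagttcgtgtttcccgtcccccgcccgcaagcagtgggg
Calr: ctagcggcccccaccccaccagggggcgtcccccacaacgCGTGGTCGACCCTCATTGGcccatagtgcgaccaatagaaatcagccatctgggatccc
Derl3: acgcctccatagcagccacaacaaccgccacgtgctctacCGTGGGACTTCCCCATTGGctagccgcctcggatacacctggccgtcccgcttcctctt
Herpud1: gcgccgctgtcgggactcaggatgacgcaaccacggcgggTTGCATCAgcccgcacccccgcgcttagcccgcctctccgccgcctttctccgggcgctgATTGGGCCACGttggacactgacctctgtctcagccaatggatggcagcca
Xbp1: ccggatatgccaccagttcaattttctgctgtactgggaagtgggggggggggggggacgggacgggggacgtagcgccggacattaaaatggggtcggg

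The Hspa5 ERSE lies 65 to 47 bases before the start. Hsp90b1 holds 2, the first read on the strand of the gene and the second on the other strand, as are those of Calr and Derl3. In Herpud1, CARE (on the other strand, 112 to 105 bases before the start) precedes ERSE-II (52 to 42 bases before it). The Xbp1 window held none of the 4 letter patterns, which says nothing about the factors that bind there.

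Most of the folding and degradation genes differed little between Cre-ERT2 and ERT2 cells. Of the 33 genes, 1 rose (Xbp1), 2 fell (Herpud1 and Derl3) and 30 did not pass limma's test at an adjusted p of 0.05 over all genes. That is 9.09% of the genes called, against 7.03% of all genes tested (4.05% called higher and 2.98% lower), so the count is close to the background. The median log2 difference, Cre-ERT2 minus ERT2, was -0.0074 for the listed genes and -0.037 for all genes. The median absolute difference was 0.035 and 0.063, in the same order. With the dimmest 50% of genes left out, the median log2 differences were -0.0081 and -0.020. The groups did not overlap for 10 of the 33 genes (30.3%, against 29.9% of all genes), 3 of them with higher and 7 with lower values in Cre-ERT2. An absolute log2 difference under 0.1 was found for 29 of the 33 genes and for 14179 of all genes.

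**Figure D1:**
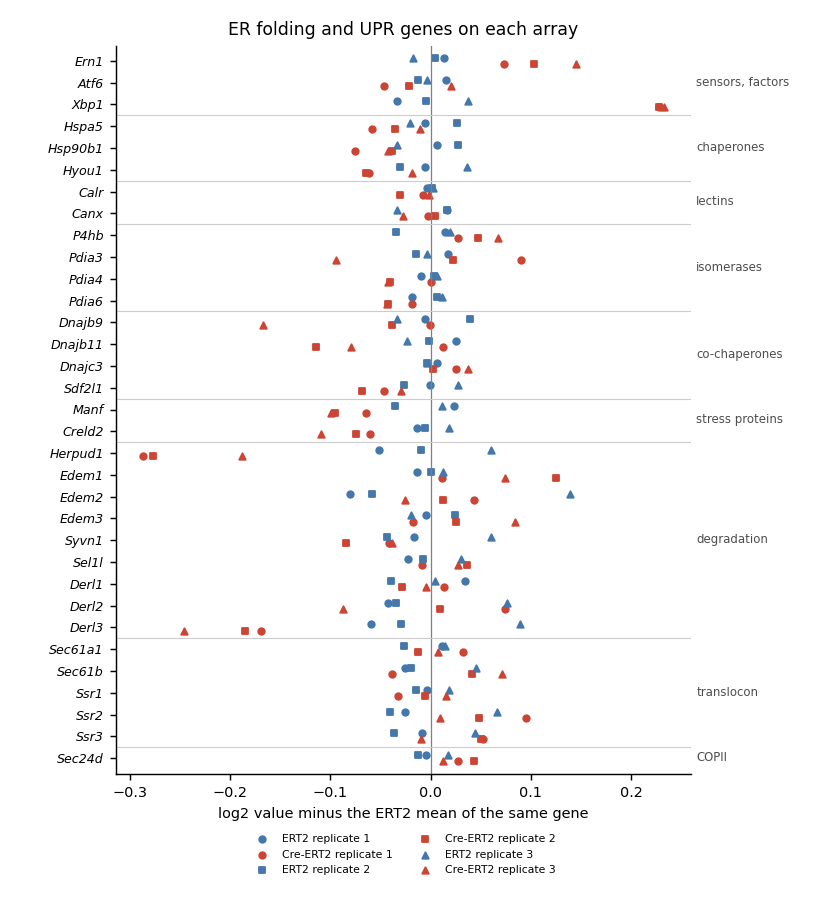
Each row is a gene and each point an array, as its log2 value minus the ERT2 mean of that gene (blue, ERT2; red, Cre-ERT2; 3 arrays each, replicate by marker shape), with rows grouped by role. Xbp1 stands to the right and Herpud1 and Derl3 to the left of all ERT2 points, while for 23 of the 33 genes the points of the groups overlap.

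The targeted gene and the labelled cell type were checked first. Bcor was at log2 10.07, 10.11 and 10.17 on the ERT2 arrays and at 9.08, 9.22 and 9.18 on the Cre-ERT2 arrays, a difference of -0.96 (limma adjusted p = 2.11e-05). Of 11 measured B-lineage markers, the surrogate light chain gene Igll1 was at 14.20 in ERT2 and 14.25 in Cre-ERT2, and Cd24a rose from 13.67 to 13.86. Array medians over all probe sets lay between 8.61 and 8.68, and the first principal component, 51.9% of the variance, separated the groups. Detection limits are unknown, and because probe sets differ in brightness, levels of different genes are not set against each other. The number of arrays limits the precision.

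Among the sensors and their factors, Xbp1 mRNA rose, and Ern1 and Atf6 did not pass the test. Xbp1, the transcription factor that IRE1 activates by splicing, had log2 values of 13.38, 13.41 and 13.45 on the ERT2 arrays and 13.64, 13.64 and 13.65 on the Cre-ERT2 arrays. Every Cre-ERT2 array lay above every ERT2 array, and the Cre-ERT2 arrays were nearly equal. The means were 13.41 ± 0.0356 and 13.64 ± 0.00335 (SD, n = 3 arrays each), a log2 difference of 0.23 (SE 0.0374, limma adjusted p = 0.00755), or 1.17-fold. The call held with each array left out in turn, at an adjusted p of 0.0146 to 0.0443. The single value per gene does not tell spliced from unspliced Xbp1 mRNA. In these bulk samples a change in RNA per cell and a change in the share of cells that express a gene cannot be told apart.

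Ern1, which encodes the kinase and RNase IRE1, read 9.49, 9.48 and 9.46 with ERT2 and 9.55, 9.58 and 9.62 with Cre-ERT2. The groups did not overlap, with all Cre-ERT2 arrays higher. The log2 difference of 0.11 (SE 0.0380) did not pass (limma adjusted p = 0.139), and its 95% interval ran from 0.021 to 0.19. Atf6, the sensor that is cut in the Golgi to release a transcription factor, read 11.89, 11.87 and 11.88 with ERT2 and 11.83, 11.86 and 11.90 with Cre-ERT2. The Atf6 groups overlapped, with a difference of -0.016 (SE 0.0375) and an interval from -0.10 to 0.070.

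**Figure D2:**
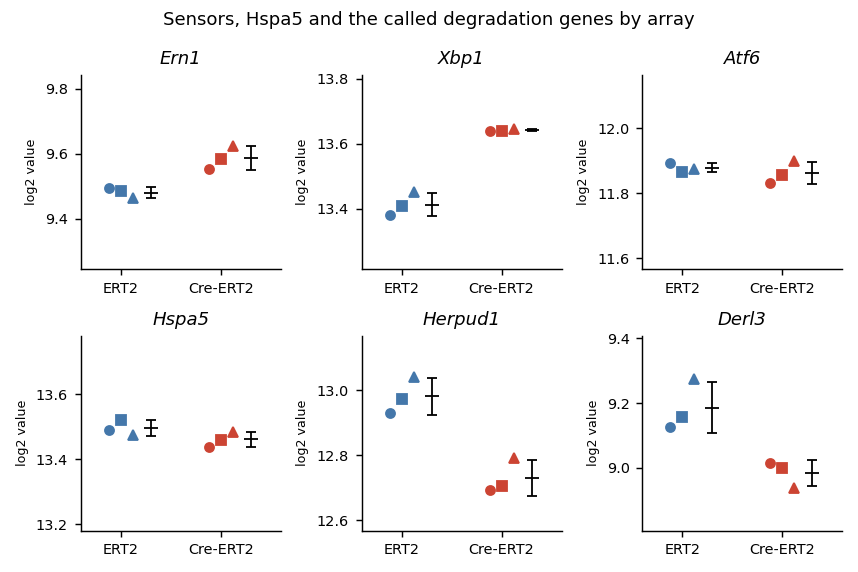
Log2 values per array for 6 genes, with 3 arrays in each group (replicate by marker shape) and the group mean with its SD in black. The Cre-ERT2 points of Xbp1 lie near 13.64, above all ERT2 points, those of Herpud1 and Derl3 lie below, and those of Atf6 and Hspa5 overlap with ERT2.

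The ER chaperones, isomerases, co-chaperones and stress proteins did not pass the test in either direction. Of 15 such genes limma called 0, and 1 (Manf) had an unadjusted p under 0.05, as did 4590 of all 19938 genes tested. Values were below 0 for 12 of the 15 and above 0 for 3, with differences from -0.086 to 0.047. Most genes on the arrays also lay below 0 (13592 of 19938). That background depends on the genes counted: the all-gene median, -0.037, was -0.020 with the dimmest 50% of genes left out. Over the 15 genes the 95% intervals reached no further than -0.18 and 0.13, that is, no change in either direction beyond 1.14-fold lay inside them.

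Hspa5 encodes BiP, the main HSP70-type chaperone of the ER, which also holds the sensors inactive in unstressed cells. Its log2 values were 13.49, 13.52 and 13.48 on the ERT2 arrays and 13.44, 13.46 and 13.49 on the Cre-ERT2 arrays. These overlapped, and the difference was -0.035 (SE 0.0371, limma adjusted p = 0.606), with an interval from -0.12 to 0.050. Hsp90b1, the HSP90-type chaperone GRP94, read 13.38, 13.40 and 13.34 against 13.30, 13.33 and 13.33 with Cre-ERT2. Its groups did not overlap, but the difference of -0.052 (SE 0.0376) did not pass. Hyou1, a large HSP70 relative that acts as exchange factor for BiP, differed by -0.048 (means 11.54 and 11.49).

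The lectin chaperones calreticulin (Calr) and calnexin (Canx) hold glycoproteins while they fold. Calr read 13.42 on each ERT2 array and 13.41, 13.39 and 13.42 on the Cre-ERT2 arrays, a difference of -0.013 (SE 0.0352) with an interval from -0.093 to 0.067. Canx differed by -0.0088 (means 13.95 and 13.94). Both sets of values overlapped between the groups.

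The disulfide isomerases form and reshuffle disulfide bonds in client proteins. P4hb, the classical isomerase PDI, differed by 0.047 and Pdia3, which works with the lectin chaperones, by 0.0062. Pdia4 differed by -0.028 and Pdia6 by -0.035. The P4hb values on Cre-ERT2 arrays all lay above and the Pdia6 values all below those on ERT2 arrays, without a call for either (limma adjusted p = 0.481 and 0.593). A second probe set for Pdia4 gave a difference of -0.0073.

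Among the partners of BiP, Dnajb9 (ERdj4) differed by -0.069, Dnajb11 (ERdj3) by -0.061, Sdf2l1, which forms a complex with Dnajb11, by -0.048, and Dnajc3 (p58IPK), an inhibitor of PERK, by 0.022. The 2 probe sets of Dnajc3 hold identical values and count as 1 measurement. Manf, a secreted protein induced by ER stress, read 11.13, 11.07 and 11.12 against 11.04, 11.01 and 11.01 with Cre-ERT2. Creld2, another secreted stress protein, read 12.42, 12.43 and 12.45 against 12.37, 12.36 and 12.32. For both the Cre-ERT2 arrays were lower without overlap, by -0.086 (SE 0.0375) and -0.081 (SE 0.0367), and neither passed (limma adjusted p = 0.212 and 0.228).

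**Figure D3:**
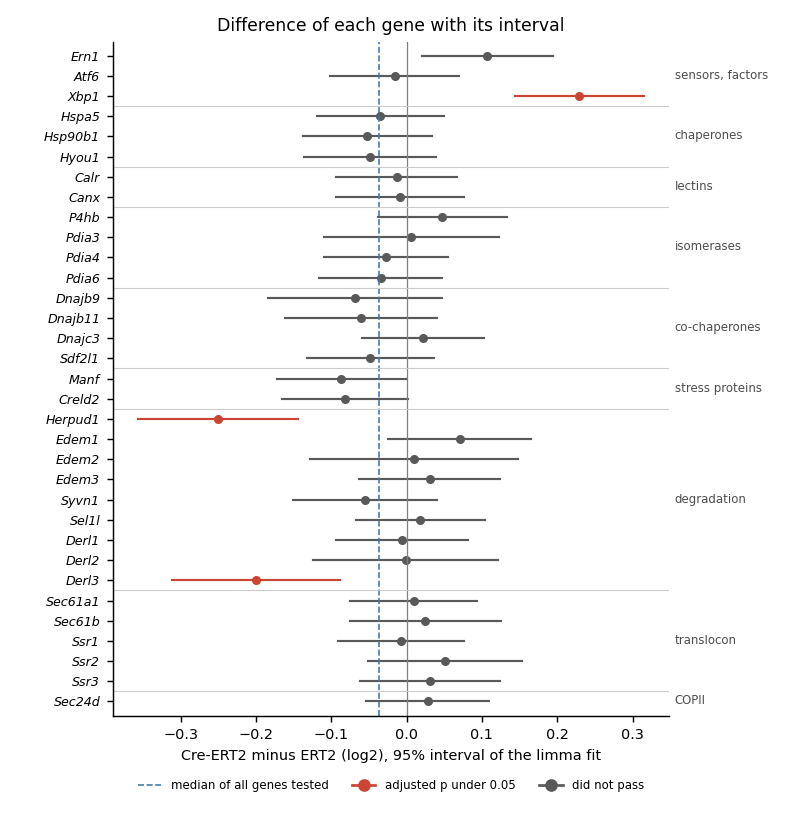
Log2 difference, Cre-ERT2 minus ERT2, of each gene with its 95% interval from the limma fit on 3 arrays per group; red marks an adjusted p under 0.05 and the dashed line is the median of all genes tested, -0.037. The intervals of the 30 genes that did not pass stay between -0.18 and 0.19. Those of Xbp1, Herpud1 and Derl3 exclude 0, as do those of Ern1 and Manf, which did not pass.

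In the ERAD group 2 of 9 genes fell, 0 rose and 7 did not pass, or 22.2% called against 7.03% of all genes tested. Herpud1 encodes HERP, a membrane protein with a ubiquitin-like domain that helps assemble the degradation complex around the ligase HRD1. Its log2 values were 12.93, 12.97 and 13.04 on the ERT2 arrays and 12.69, 12.70 and 12.79 on the Cre-ERT2 arrays, with replicate 3 the highest in each group. The groups did not overlap. The means were 12.98 ± 0.0564 and 12.73 ± 0.0544 (SD, n = 3 arrays each), a log2 difference of -0.25 (SE 0.0464, limma adjusted p = 0.0140), that is, 1.19-fold lower levels with Cre-ERT2. The call was lost when Cre-ERT2 replicate 1 was left out (difference -0.23, adjusted p = 0.0591) and when replicate 2 of that group was left out (difference -0.24, adjusted p = 0.0699).

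Derl3, a derlin of the retrotranslocation machinery that is prominent in secretory cells, read 9.13, 9.16 and 9.27 with ERT2 and 9.02, 9.00 and 8.94 with Cre-ERT2. All Cre-ERT2 values were lower than all ERT2 values. The means were 9.19 ± 0.0784 and 8.99 ± 0.0404 (SD, n = 3 arrays each), a difference of -0.20 (SE 0.0491, limma adjusted p = 0.0469). This call was at the edge of the threshold and ended with any array left out, at an adjusted p of 0.0704 to 0.130. It also ended under quantile normalization, median centring and cyclic loess of the deposited values (adjusted p = 0.0975, 0.102 and 0.0702).

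The other derlins, Derl1 and Derl2, differed by -0.0064 and -0.0013. The lectin-like mannosidases Edem1, Edem2 and Edem3, which mark glycoproteins for disposal, differed by 0.070, 0.0100 and 0.031. The ligase HRD1, encoded by Syvn1, differed by -0.055 and its partner Sel1l by 0.018. All 7 of these genes overlapped between the groups.

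The translocon genes and the COPII gene did not pass either. Sec61a1, the pore subunit, differed by 0.0092 and the small subunit Sec61b by 0.025. A further 2 probe sets of Sec61b gave 0.053 and 0.030. The translocon-associated subunits Ssr1, Ssr2 and Ssr3 differed by -0.0074, 0.051 and 0.031. Sec24d, a cargo-binding subunit of the COPII coat, differed by 0.028 (means 8.13 and 8.15). Of these 6 genes limma called 0, 0 had an unadjusted p under 0.05, and every one overlapped between the groups.

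Set beside the promoter letters, 9 measured genes with an ERSE had a median difference of -0.035, with 1 lower (Derl3) and 8 not passing. With ERSE-II, Herpud1 fell and Dnajb11, at -0.061, did not pass. Over ERSE, ERSE-II and UPRE together, 12 measured genes had a median of -0.044, with 0 higher and 2 lower. The other 15 measured genes with a promoter in the table had a median of 0.018, with 1 higher (Xbp1) and 0 lower. The median over all genes tested was -0.037, and it was -0.020 with the dimmest 50% of genes left out. No test was made of these groups.

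The rest of the ER pathway was counted from fixed lists of 95 other genes, 90 of them measured. Of these 6 fell, 0 rose and 84 did not pass, or 6.67% called. Over all genes tested 7.03% were called (4.05% higher and 2.98% lower), so the count is close to the background. The falls were 5 of 11 genes listed under the PERK branch and its targets (45.5%) and 1 of the other 79 genes (1.27%). These lists were drawn up with earlier results on ATF4 targets in these samples known, so the count of the PERK branch is not independent evidence of its direction.

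In the PERK branch list all 11 genes had values below 0, and the median difference was -0.086. The list held Eif2a (-0.075, not called), which encodes eIF2A and not eIF2α, the factor that PERK phosphorylates. Over all 19938 genes tested, 13592 had values below 0 and the median was -0.037 (-0.020 with the dimmest 50% of genes left out). Atf4, the transcription factor raised when PERK or another kinase phosphorylates eIF2α, read 11.54, 11.51 and 11.53 with ERT2 and 11.27, 11.26 and 11.20 with Cre-ERT2, a difference of -0.28 (SE 0.0378, limma adjusted p = 0.00283). Its targets Trib3, a pseudokinase, and Chac1, which degrades glutathione, fell by 0.46 (SE 0.0523) and 0.44 (SE 0.0563). The groups did not overlap for any of these genes. Atf3 differed by -0.27 (limma adjusted p = 0.0318) and Ddit3, which encodes the factor CHOP, by -0.21 (limma adjusted p = 0.0309). Of the 6 fits that each leave out an array, Ddit3 was called in 1 (the fit lacking Cre-ERT2 replicate 3) and otherwise reached an adjusted p of 0.116. Atf3 was likewise called in 1, the fit lacking ERT2 replicate 2, and otherwise reached 0.127. Eif2ak3, the gene of PERK itself, differed by -0.031, and Ppp1r15a, which reverses eIF2α phosphorylation, by -0.081.

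Herpud1 was the listed gene with CARE letters in its promoter. In the PERK branch list, 3 of 10 genes with a promoter in the table had them too (Atf3, Chac1 and Trib3). The windows before the start are shown beside that of Herpud1 because they carry the same 8 letters. They lie at chr8:94386302-94386339 (plus) for Herpud1, chr2:119351034-119351071 (plus) for Chac1 and chr1:191183421-191183458 (minus) for Atf3. The match in Trib3 lies after the start and is not shown.
Herpud1: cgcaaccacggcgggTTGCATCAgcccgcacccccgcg
Chac1: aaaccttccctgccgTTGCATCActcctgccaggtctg
Atf3: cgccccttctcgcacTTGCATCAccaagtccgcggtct
The capitals are the reverse complement of TGATGCAA. The log2 differences of these genes were -0.25 for Herpud1, -0.44 for Chac1 and -0.27 for Atf3. In the other lists CARE also stood in Txndc5 (-0.073), Cnpy2 (-0.14), Faf2 (0.045) and Kdelr1 (-0.083). None of these passed the test. Whether CARE goes with the falls was not tested, and the letters were chosen with the values known.

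Of the other lists, 13 further ERAD genes held 1 fall, that of Ngly1, the cytosolic enzyme that strips N-glycans from retrotranslocated proteins. Ngly1 read 12.07, 12.05 and 12.02 with ERT2 and 11.84, 11.79 and 11.82 with Cre-ERT2, a difference of -0.23 (SE 0.0371, limma adjusted p = 0.00678) that was called with each array left out in turn. In the same list Selenos differed by 0.13 and did not pass. Among 20 further folding, oxidation and glycan-trimming genes limma called 0. Of these 20, 5 had an unadjusted p under 0.05, beside 4590 of all 19938 genes tested. Cnpy2 at -0.14 and Dnajb12 at -0.15 had the smallest p-values. Limma also called 0 of 8 genes that process or regulate the sensors (0 at an unadjusted p under 0.05, Creb3 at 0.080 and Rtcb at -0.051). It called 0 of 21 genes of translocation, signal peptidase and oligosaccharyltransferase (1 at an unadjusted p under 0.05, Tram1 at 0.094, and Spcs2 at 0.065) and 0 of 17 COPII and cargo receptor genes (0 at an unadjusted p under 0.05, Kdelr1 at -0.083 and Tmed2 at 0.054).

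**Figure D4:**
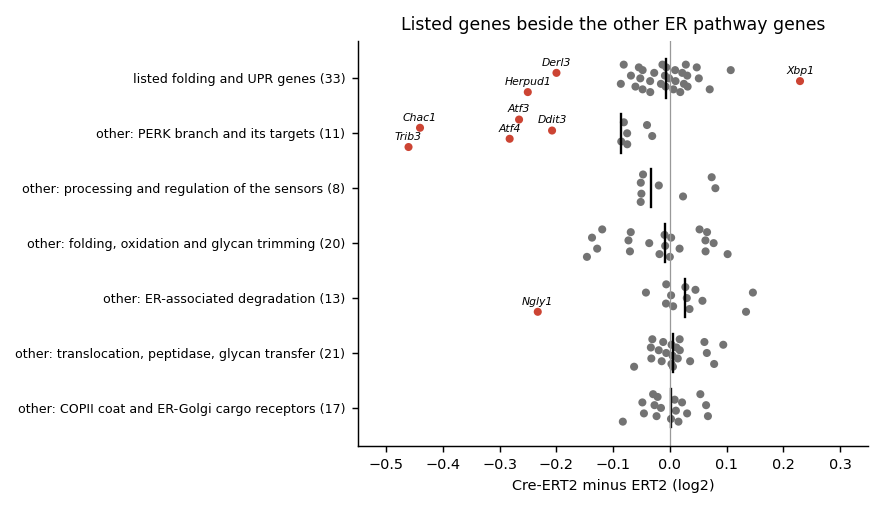
Log2 difference, Cre-ERT2 minus ERT2, of each gene in the list of 33 and in 6 lists of other ER pathway genes, with the number measured in brackets; red points have an adjusted p under 0.05, black bars are medians and vertical scatter carries no value. The falls lie mostly in the PERK branch, from Ddit3 at -0.21 to Trib3 at -0.46, and Xbp1 at 0.23 is the red point to the right of 0.

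Plasma cell markers were examined beside Xbp1, because XBP1 is a factor of that cell type. Of 11 measured, 1 rose, 1 fell and 9 did not pass, or 18.2% called against 7.03% of all genes tested. The elongation factor Ell2 rose by 0.35 (12.24 ± 0.0267 against 12.59 ± 0.00528, SD, n = 3 arrays each, limma adjusted p = 0.000675). The antibody joining chain Jchain fell by 0.45 (11.09 ± 0.0317 against 10.63 ± 0.0471, SD, n = 3 arrays each, limma adjusted p = 0.000345). Pou2af1 and Mzb1 differed by -0.0045 and 0.022, and Prdm1, which encodes the plasma cell regulator BLIMP1, by 0.0048. The mean log2 level over the 11 genes was 10.48 to 10.54 on the ERT2 arrays and 10.49 to 10.53 on the Cre-ERT2 arrays. Its part in the change of Xbp1 was not tested.

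Markers of other cells were followed in the same way, beside 4.05% of all genes called higher and 2.98% called lower. Of 10 myeloid markers Lyz2 and Fcgr1 rose, by 0.45 and 0.35, Mrc1 fell by 0.54, and Cd68 differed by 0.055. The ERT2 and Cre-ERT2 means were 9.76 and 10.21 for Lyz2, 7.88 and 8.23 for Fcgr1, and 8.82 and 8.28 for Mrc1. Array medians over all probe sets lay between 8.61 and 8.68. Fcgr1 was called in 2 of the 6 fits that leave out an array, those lacking ERT2 replicate 1 or Cre-ERT2 replicate 3, and otherwise reached an adjusted p of 0.112. The mean over the myeloid markers was 8.26 to 8.28 with ERT2 and 8.28 to 8.30 with Cre-ERT2. Of 9 T and NK markers Ncr1 fell by 0.23 (means 7.01 and 6.78), a call lost without Cre-ERT2 replicate 1 (adjusted p = 0.0529). Cd3e and Cd8a differed by -0.023 and -0.073. The mean over the T and NK markers was 7.57 to 7.64 with ERT2 and 7.51 to 7.55 with Cre-ERT2. Of 10 stromal markers limma called 0 and 5 had an unadjusted p under 0.05, beside 4590 of all 19938 genes tested. Col1a1 differed by -0.083 and Col1a2 by -0.10, and the list mean was 8.23 to 8.29 with ERT2 and 8.16 to 8.18 with Cre-ERT2. Among the B-lineage markers Cd22 rose by 0.27 and Rag1 fell by 0.38, and Cd24a, at 0.19, was called in 1 of the 6 fits that leave out an array, the one lacking Cre-ERT2 replicate 3, and otherwise reached an adjusted p of 0.171. The part of these markers in the differences of Xbp1, Herpud1 and Derl3 was not tested.

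**Figure D5:**
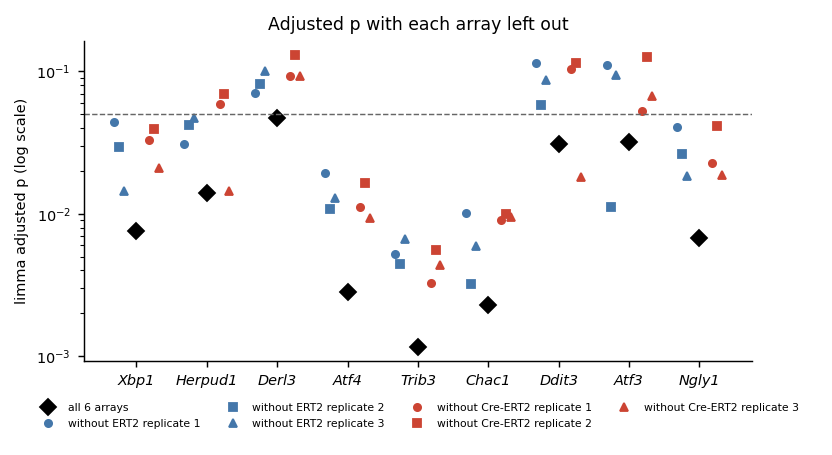
Limma adjusted p (log axis) of 9 called genes on all 6 arrays (black) and with each array left out in turn (blue, an ERT2 array; red, a Cre-ERT2 array); the dashed line is 0.05. Xbp1, Atf4, Trib3, Chac1 and Ngly1 stay below the line in all 6 fits, Herpud1 crosses it in 2 and Derl3 in all 6.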

How the data were processed

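The authors deposited a log2 expression value for each probe set and array. RMA and Partek 6.5 appear in the submitters' processing notes, which do not say what each was used for. Their background setting and genome build are not given in the sources used here. Of 35556 probe sets, 21789 had 1 gene symbol in the platform annotation, 1621 had several and were not used, and 12146 had none listed. Symbols were updated by gene identifier for the 21698 that matched the GRCm38.p6 gene table.

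Cre-ERT2 minus ERT2 was tested in R 4.3.3 with limma 3.58.1 (two-sided, lmFit then eBayes without a trend) on 19938 genes and 6 arrays, with Benjamini-Hochberg adjustment over all genes. The code of the fit was also run on simulated data with independent noise on each array, which does not bear on array effects shared by many genes. Replicate numbers were not used to pair the arrays. Printed in full were the called genes among the listed ones, the sensors, Hspa5, Hsp90b1 and Calr. Manf, Creld2 and per-array values of other genes were added after their values were seen. From each other list the called genes or the 2 of smallest p were named, and from each marker list the called genes and the 2 of highest mean. Genes with a CARE match were named for it. Names beyond that (Eif2ak3, Ppp1r15a, Eif2a, Selenos and Prdm1) were picked with their values in view. The members and lists were chosen with earlier results of these data known. Motif searches and figures used pandas 2.3.3 and matplotlib 3.10.9 under Python 3.11.15.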

Additional observations from a re-analysis of the deposited data

How the results depend on the processing

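Xbp1 was called higher, and was the 1 listed gene so called, under all 10 alternatives and with each array left out in turn. Herpud1 was called lower under all 10 alternatives (adjusted p 0.00139 to 0.0269). The count of listed genes called lower, 2 with all arrays, was 1 under quantile normalization, median centring, cyclic loess and the replicate block, and 0 to 1 with an array left out, since Derl3 or Herpud1 lost its call. The median difference of the listed genes, -0.0074, was 0.0035 after quantile normalization and 0.0056 after cyclic loess, and -0.018 to -0.0042 with an array left out, so its sign carries no weight. Array weights called 3 other ER pathway genes higher against 0 otherwise, among them Selenos and Tram1. They called 9 lower, against 6 in the main fit. With the replicate number as a block (replicate block), Derl3 (adjusted p = 0.123), Ddit3 (0.0785) and the marker Cd24a (0.102) lost their calls. Same-numbered arrays correlated in their deviations at -0.26 to 0.051. So few arrays cannot decide whether the numbers mark a pairing, and the main fit used none. Over all genes the count of calls, 1402, was 805 with the block, 3339 with array weights, 2271 at an adjusted p of 0.1 and 743 to 1341 with an array left out. Higher genes made up 57.6% of the calls, 67.8% with the block, 67.9% after cyclic loess and 39.4% with array weights. No called gene of the listed, other pathway or marker genes changed sign under these alternatives. The number of arrays and the unknown detection limit bound what can be said of small differences.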
